A study of Danio rerio with 2 samples.

Results

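The vacuolar proton pump genes of the zebrafish were taken as the listed genes whose symbols begin with atp6v or atp6ap, and there were 27 of them among 25107 genes. They comprised 13 genes of the V1 sector, 9 of the V0 sector and 5 accessory genes. RNA was counted in single cells of Tg(mitfa:GFP) embryos at 24 hours post fertilisation (hpf), in which the promoter of mitfa drives green fluorescent protein. Cells with high and with low fluorescence were sorted into 1 library each, and the number of embryos behind each library is not given in the sources used here. All cells therefore carried the same transgene and were of the same age. GFP is a reporter of mitfa promoter activity, not of pigment, and both sorted fractions held many cells that were not pigment cells. The levels of the pump genes were compared between the clusters that the authors assigned to the cells, and between the high and low GFP libraries within a cluster.

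The vacuolar proton pump, or V-ATPase, is a rotary machine that uses ATP to move protons into lysosomes, endosomes, secretory vesicles and melanosomes, the organelles in which melanin is made. Its V1 sector sits in the cytosol and hydrolyses ATP, while its V0 sector lies in the membrane and carries the protons. In pigment cells the pump is known for setting the pH inside the melanosome, on which the activity of tyrosinase depends, and loss of pump subunits is known to lighten the pigment of zebrafish embryos. The same pump also serves ion-transporting ionocytes of the fish skin and loads neurotransmitter into synaptic vesicles of neurons.

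The high GFP library held 2374 kept cells with a median of 6858.5 unique molecular identifiers (UMIs, counts of captured RNA molecules), and the low GFP library held 2361 kept cells with a median of 5732 UMIs. A single barcode occurred in both libraries, in different clusters. Cluster 6 (197 cells in the high and 22 in the low GFP library) carried a fixed list of 8 melanophore markers at 14346 and 12372 UMIs per 1000000 UMIs (CPM) and was called melanophore-like, and cluster 3 (324 and 78 cells) carried xanthophore markers at 29352 and 22911 CPM and was called xanthophore-like. Xanthophore markers stood at 1126 CPM in the high and 674 CPM in the low GFP library in cluster 6. A list of 4 iridophore markers stood there at 731 and 556 CPM, against 348 and 245 CPM in cluster 3. The ionocyte and macrophage markers were at 0 in cluster 6. Melanophore markers stood at 621 and 320 CPM in cluster 3. Cluster 1 (435 and 380 cells) was led by alx4a, ednrab and mcamb, held melanophore markers at 1918 and 328 CPM, and was left unnamed. Clusters 0, 2, 4, 5, 7, 8 and 9 were pooled as non-pigment clusters. Among them cluster 4 was neuron-like, cluster 7 epidermis-like, cluster 8 muscle-like and cluster 9, with 19 cells in the low GFP library, pancreatic islet-like by their markers. Cluster 5 held retina markers at 1001 and 917 CPM and neural progenitor markers at 1648 and 1424 CPM. It also held melanophore markers at 344 and 429 CPM, in the low GFP library above clusters 1 (328 CPM) and 3 (320 CPM), and was kept in the pool. With 1 library per GFP fraction, and with clusters drawn from the same RNA counts, no test was made, and the 95% intervals given cover counting error only.

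Cluster 6 held the highest summed level of the 27 pump genes. Their UMIs reached 9392 CPM (95% Poisson interval 9263 to 9522) in the high GFP library and 8654 CPM (8284 to 9037) in the low GFP library, or 0.939% and 0.865% of all UMIs of the cluster. Cluster 3 followed with 4779 CPM in the high and 4513 CPM in the low GFP library. Cluster 1 stood at 4126 CPM in the high and 1950 CPM in the low GFP library, the widest gap between the libraries among clusters with cells in both. The non-pigment clusters pooled had 855.0 and 839.9 CPM. Within them cluster 4 stood apart with 2579 and 2364 CPM, and so did the islet-like cluster 9 with 3204 CPM in the low GFP library, whereas clusters 0, 2, 5 and 8 lay between 553.3 and 704.1 CPM. Cluster 7 lay between these, at 1049 CPM in the high and 1457 CPM in the low GFP library. In the low GFP library clusters 9 and 4 thus lay above cluster 1, and in the high GFP library cluster 1 lay above cluster 4.

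**Figure D1:**
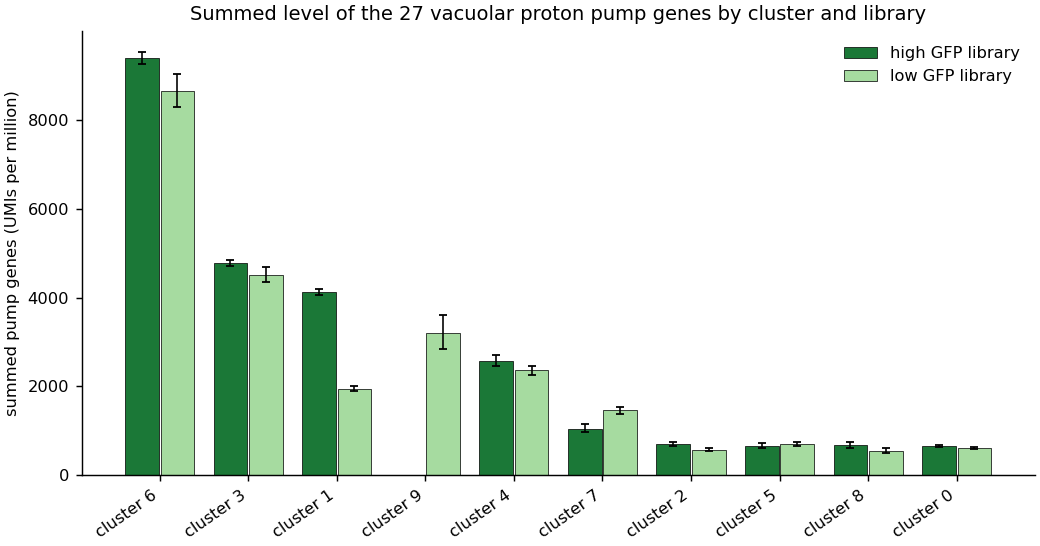
Summed level of the 27 vacuolar proton pump genes (CPM, vertical axis) in each cluster, with the high GFP library left of the low GFP library and 95% Poisson intervals as error bars. Cluster 6 stands at 9392 and 8654 CPM, cluster 3 at 4779 and 4513 CPM, and cluster 1 is at 4126 CPM in the high and 1950 CPM in the low GFP library.

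On the log2 scale the summed level in cluster 6 lay 3.46 above the non-pigment clusters in the high GFP library (95% interval 3.42 to 3.497) and 3.37 above them in the low GFP library (3.30 to 3.43), a ratio of 10.98 and 10.3. The distance to cluster 3 was 0.97 in the high and 0.94 in the low GFP library, and that to cluster 1 was 1.19 and 2.15. Per 10000 UMIs, the 197 cells of cluster 6 in the high GFP library held between 45.0 and 240 pump UMIs with a median of 92.2, and the 22 cells in the low GFP library held between 55.5 and 136 with a median of 85.3. No cell of cluster 0, 2 or 8 reached the lowest cell of cluster 6, their highest values being 42.4 per 10000 in the high and 44.3 in the low GFP library, both in cluster 2. Clusters 5 and 7 each held a few cells that reached the range of cluster 6. Cells of cluster 7 in the low GFP library at 322 and 265 per 10000 lay above every cell of cluster 6. In the low GFP library the highest cell of cluster 4, at 139, was also above the highest of cluster 6. Clusters 3, 1 and 4 overlapped it more, with 90th percentiles of 63.1, 73.7 and 57.2 per 10000 in the high and 58.3, 43.6 and 54.7 in the low GFP library. The highest cell of cluster 9 was at 65.1.

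Of the 27 genes, 20 reached the minimum of 200 UMIs over all kept cells that was set for ratios, 11 of the V1 sector, 7 of the V0 sector and 2 accessory genes. The other 7 were atp6v0a1b (146 UMIs), atp6ap1a (116), atp6v1b2 (105), atp6v0a2a (56), atp6ap1la (28), atp6ap1lb (13) and atp6v1c2, which had 0 UMIs. All 20 also reached 200 UMIs in the kept cells outside cluster 6. The lowest was atp6v1f, which had 94 of its 355 kept-cell UMIs in cluster 6. The assay counts the 3′ ends of transcripts, and the genes differ in how well they are captured. Levels of each gene were therefore compared across clusters and not with those of other genes. Shares of UMIs between paralogs, given further below, are likewise to be compared between clusters.

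A and B subunits form the ring that binds and hydrolyses ATP. The B subunit gene atp6v1ba had 472.5 CPM in the high and 451.1 CPM in the low GFP library in cluster 6, against 108.5 and 84.2 CPM in cluster 3, 229.6 and 82.9 CPM in cluster 1, and 23.7 and 25.8 CPM in the non-pigment clusters. Cluster 6 was thus above each of the other groups in both libraries. In the high GFP library cluster 1 came nearest, while in the low GFP library clusters 3 and 1 had nearly the same level. The catalytic A subunit is encoded by a pair of expressed genes, of which atp6v1ab had 252.9 and 223.4 CPM in cluster 6, 177.4 and 186.1 CPM in cluster 3, and 10.6 and 7.81 CPM in the non-pigment clusters. Its paralog atp6v1aa had 151.0 and 118.0 CPM in cluster 6 but 94.1 and 118.2 CPM in cluster 3. The low GFP values were thus nearly the same, but that of cluster 6 rests on 28 UMIs. The log2 ratio there had a wide interval of -0.68 to 0.64, so equal levels are not shown. Both A genes were well above the non-pigment clusters, with log2 ratios of 4.57 and 4.84 for atp6v1ab and 3.22 and 2.81 for atp6v1aa.

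The stalks of V1 were read from the C, E, G, H, D and F subunits. C ties the peripheral stalk to the membrane sector, and its gene atp6v1c1b had the highest ratio of all members over the non-pigment clusters, with 200.6 and 215.0 CPM in cluster 6 against 4.45 and 4.70 CPM, or 5.50 (95% interval 5.00 to 6.03) in the high and 5.51 (4.92 to 6.11) in the low GFP library on the log2 scale. The other C gene, atp6v1c1a, had 94.03 and 67.4 CPM in cluster 6 against 19.9 and 18.9 CPM in the non-pigment clusters, log2 ratios of 2.24 and 1.83, the lowest of the V1 sector. The 2 C genes thus differed in their ratios by more than the intervals of either. E and G build the peripheral stalks. The gene atp6v1e1b had 814.3 and 746.1 CPM in cluster 6, 577.9 and 516.9 CPM in cluster 3, and 42.5 and 41.9 CPM in the non-pigment clusters. Its paralog atp6v1e1a had 81.1 and 109.6 CPM in cluster 6 against 8.77 and 11.5 CPM in the non-pigment clusters. The G subunit gene atp6v1g1 had 1786 and 1661 CPM in cluster 6, 829.4 and 840.3 CPM in cluster 3, and 106.2 and 107.0 CPM in the non-pigment clusters, with log2 ratios of 1.11 and 0.98 over cluster 3. Subunit H, known from yeast to brake ATP hydrolysis when V1 is free, was read from atp6v1h, with 192.2 and 151.8 CPM in cluster 6 against 143.1 and 152.1 CPM in cluster 3 and 13.7 and 13.8 CPM in the non-pigment clusters. D and F form the central rotor. The gene atp6v1d had 256.6 and 290.9 CPM in cluster 6 against 17.0 and 20.5 CPM in the non-pigment clusters, and atp6v1f, with 86 and 8 UMIs in cluster 6, had 39.8 and 33.7 CPM against 3.33 and 3.76 CPM. All 11 V1 genes with a ratio were at least 2-fold higher in cluster 6 than in the non-pigment clusters in both libraries. The same held for 15.3% of all genes.

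The V0 sector carries protons through a ring of c subunits beside the fixed a subunit. The c subunit gene atp6v0ca supplied the most pump UMIs of any member, with 6947 UMIs in cluster 6. It had 2920 and 2706 CPM in cluster 6, against 1042 and 908.3 CPM in cluster 3, 1140 and 554.0 CPM in cluster 1, and 230.4 and 225.5 CPM in the non-pigment clusters. The other c subunit gene, atp6v0cb, was the exception among the 20 against the pooled non-pigment clusters. It had 38.0 and 21.1 CPM in cluster 6 against 46.1 and 47.4 CPM in the non-pigment clusters. Its log2 ratios of -0.28 (-0.64 to 0.07) and -1.17 (-2.80 to 0.06) had intervals that held 0. The pool includes the neuron-like cluster 4, where atp6v0cb stood at 390.4 and 383.8 CPM. Against clusters 0, 2, 5, 7 and 8 taken one by one, atp6v0cb was higher in cluster 6 in both libraries. In the high GFP library it was at least 2-fold higher than in each of them. The low GFP value of atp6v0cb in cluster 6 rests on 5 UMIs. The a subunit gene atp6v0a2b had 139.0 and 168.6 CPM in cluster 6, 25.9 and 25.1 CPM in cluster 3, 43.9 and 12.2 CPM in cluster 1, and 4.94 and 5.27 CPM in the non-pigment clusters. Cluster 6 was therefore the only place among the 10 clusters with more than 100 CPM of this gene. For the related a subunit gene atp6v0a1a the values were 72.3 and 59.0 CPM in cluster 6 against 54.5 and 48.7 CPM in cluster 3 and 8.89 and 11.5 CPM in the non-pigment clusters. The c″ subunit gene atp6v0b had 212.6 and 185.5 CPM in cluster 6, and 28.8 and 28.2 CPM in the non-pigment clusters. The d subunit couples the rotor to the ring, and atp6v0d1 had 140.3 and 134.9 CPM in cluster 6, 59.5 and 65.0 CPM in cluster 3, and 18.4 and 20.1 CPM in the non-pigment clusters. The small e subunit gene atp6v0e1 had 778.2 and 653.4 CPM in cluster 6 against 176.6 and 153.4 CPM in the non-pigment clusters, log2 ratios of 2.14 and 2.09, so it and atp6v1c1a had the lowest ratios of the genes that were higher in cluster 6.

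Accessory proteins help V0 to assemble and to reach its membrane. The gene atp6ap1b encodes a glycoprotein bound to V0, and had 275.6 and 227.6 CPM in cluster 6, 203.2 and 217.1 CPM in cluster 3, and 11.9 and 13.7 CPM in the non-pigment clusters. The gene atp6ap2 encodes the protein also known as the prorenin receptor, and had 470.1 and 421.5 CPM in cluster 6, 324.5 and 320.5 CPM in cluster 3, and 42.6 and 41.5 CPM in the non-pigment clusters. Cluster 6 was above cluster 3 by less than 2-fold for both genes, and for atp6ap1b in the low GFP library the log2 ratio of 0.07 had an interval of -0.41 to 0.53 and changed sign with scaling.

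**Figure D2:**
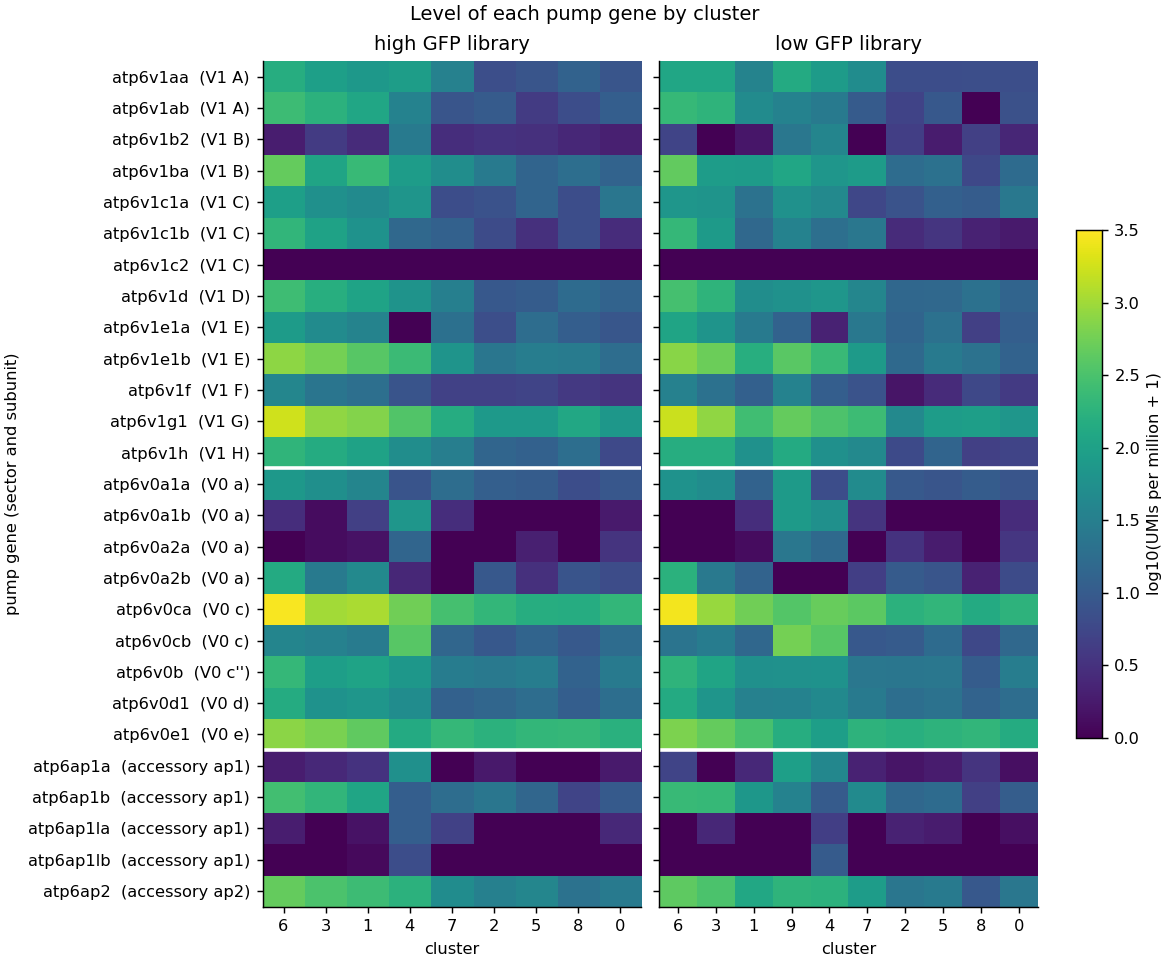
Heat map of the level of each pump gene (rows, by sector) in each cluster and library (columns), to be read along a row since capture differs between genes. Among the 20 genes with a ratio, cluster 6 holds the highest value in 19 in the high GFP library. In the low GFP library it does so in 17 of 20. The share of all genes with their highest value in cluster 6 was not counted, so these counts do not set the pump genes apart.

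Across the 20 genes, 19 were at least 2-fold higher in cluster 6 than in the non-pigment clusters in both libraries, where 15.3% of the 8231 genes with 200 or more UMIs were. The median log2 ratio of the pump genes was 3.62 in the high and 3.40 in the low GFP library, and that of all genes was -0.31 and -0.19. By sector the counts were 11 of 11 for V1, 6 of 7 for V0 and 2 of 2 for the accessory genes. The 19 genes also had intervals that lay wholly above 2-fold in both libraries, a count that was not made over all genes. Their fold was not the same throughout, since the log2 ratios of the 19 in the high GFP library ran between 2.14 for atp6v0e1 and 5.50 for atp6v1c1b.

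**Figure D3:**
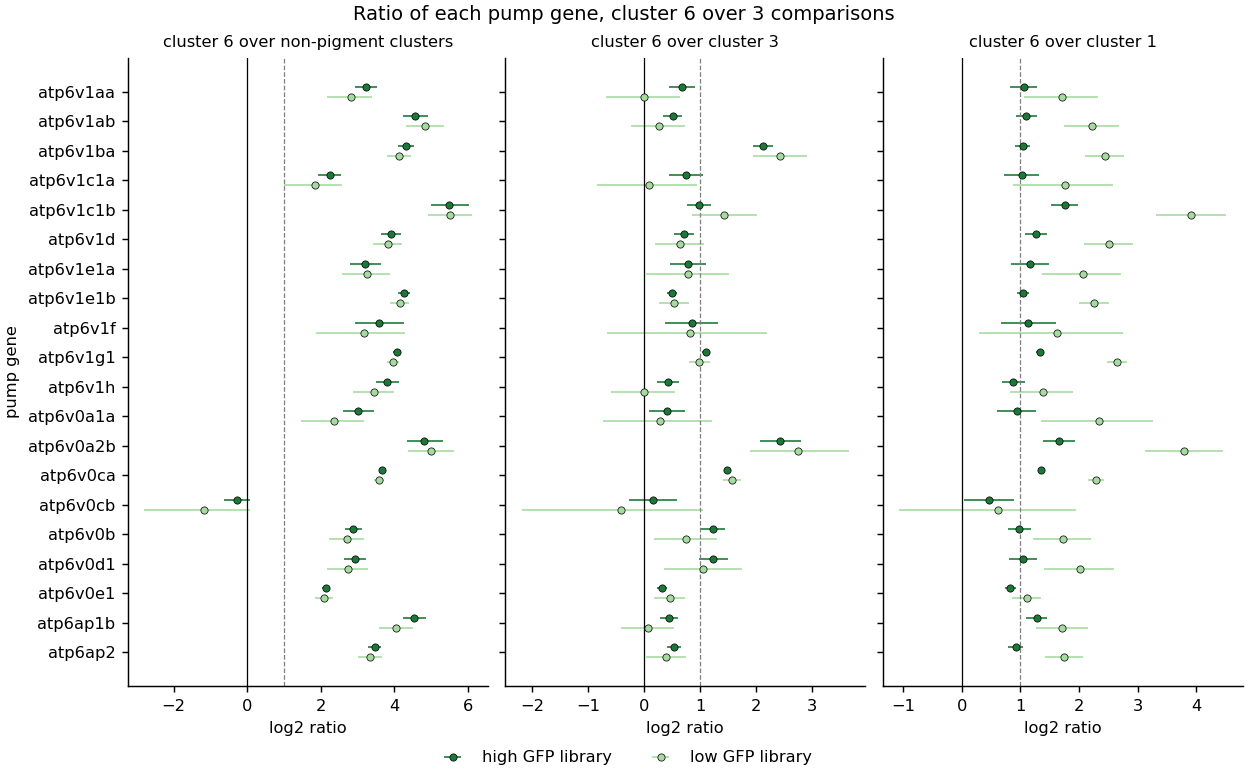
Log2 ratio of cluster 6 over the non-pigment clusters, cluster 3 and cluster 1 for the 20 pump genes with a ratio, with 95% conditional intervals, for the high and low GFP libraries. The dashed line marks a 2-fold ratio. In both libraries 19 genes lie above it against the non-pigment clusters, 4 against cluster 3 and 14 against cluster 1. The shares of all genes were 15.3%, 4.5% and 4.54%.

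Set against the xanthophore-like cluster 3, a few pump genes stood well apart and most lay within 2-fold. At least 2-fold higher in cluster 6 in both libraries were 4 of 20 genes, where 4.5% of all genes were. These were atp6v0a2b with log2 ratios of 2.43 and 2.75, atp6v1ba with 2.12 and 2.42, atp6v0ca with 1.49 and 1.58, and atp6v0d1 with 1.24 and 1.05. For atp6v0a2b, atp6v1ba and atp6v0ca the intervals lay wholly above 2-fold in both libraries. The median of the 20 genes was 0.73 in the high and 0.58 in the low GFP library, and that of all genes 0.04 and -0.01. The intervals of 12 of 20 genes lay above 0 in both libraries. Counts by interval were not made over all genes, so they do not set the pump genes apart. For atp6v1aa and atp6v1h the low GFP library gave log2 ratios that rounded to 0.00, from 28 and 36 UMIs in cluster 6. At least 2-fold lower in cluster 6 than in cluster 3 in both libraries were 0 of 20 genes and 3.85% of all genes. With only 20 genes this count is near that share and does not set the pump genes apart. Cluster 3 itself was at least 2-fold above the non-pigment clusters for 19 of 20 pump genes in both libraries, where 13.3% of all genes were, so high levels of most pump genes were shared by the melanophore-like and xanthophore-like cells.

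The distance to cluster 1 depended on the library. In the high GFP library the log2 ratios of the 20 genes ran between 0.47 for atp6v0cb and 1.76 for atp6v1c1b with a median of 1.05, and in the low GFP library the median was 2.04. At least 2-fold higher in cluster 6 in both libraries were 14 of 20 genes, where 4.54% of all genes were. The genes with the widest distance in the low GFP library were atp6v1c1b, with a log2 ratio of 3.91 (215.0 CPM in cluster 6 against 14.3 CPM in cluster 1), and atp6v0a2b, with 3.79 (168.6 against 12.2 CPM). Cluster 1 stood above the non-pigment clusters by at least 2-fold for 14 of 20 genes in both libraries, where 9.35% of all genes did.

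Within cluster 1 the summed pump level of the high GFP library was above that of the low GFP library by 1.08 on the log2 scale (95% interval 1.04 to 1.12). All 20 genes were higher in the high GFP cells, and 13 of them by at least 2-fold, where 6.26% of all genes were. The widest differences were those of atp6v1c1b, 59.3 CPM in high against 14.3 CPM in low GFP cells, and atp6v0a2b, 43.9 against 12.2 CPM. In cluster 6 the summed level differed between the libraries by 0.12 (0.05 to 0.18) and in cluster 3 by 0.08 (0.03 to 0.14). In cluster 6, 0 of 20 genes were 2-fold higher in high GFP cells and 0 lower, where 5.87% of all genes were higher and 6.28% lower. In cluster 3 these counts were also 0 and 0, where 6.33% of all genes were higher and 5.15% lower. The non-pigment clusters pooled differed by 0.03, with an interval of -0.02 to 0.07 that held 0. Over all kept cells the high GFP library had 3384 CPM of pump UMIs and the low GFP library 1378 CPM, a comparison that also holds the unequal numbers of cluster 6 and cluster 3 cells in the libraries. With 1 library per fraction, the GFP level and the library cannot be told apart.

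Cells of cluster 1 were then divided by their UMIs of 10 melanin and melanosome genes, none of which is a pump gene. These were dct, tyr, tyrp1a, tyrp1b, pmela, oca2, slc24a5, slc45a2, gpr143 and mlpha, called melanin genes below. Cells with no melanin UMI had 1314 CPM of pump UMIs in the high GFP library (66 cells) and 1088 CPM in the low GFP library (206 cells). Cells with some but under 10 melanin UMIs per 10000 had 2999 CPM (158 cells) and 2401 CPM (139 cells), and cells with 10 or more had 5836 CPM (211 cells) and 4936 CPM (35 cells). The pump level was thus ordered as the melanin genes were, in both libraries, and the classes had medians of 9063, 8899 and 9410 UMIs per cell in the high and 7993, 8625 and 8949 in the low GFP library. Cells with 10 or more melanin UMIs were above cells with none by 2.15 (2.05 to 2.25) in the high and 2.18 (2.08 to 2.28) in the low GFP library, and each of the 20 pump genes was at least 2-fold higher in both, where 14.3% and 14% of the genes with a ratio were. The class with no melanin UMI held 1 cell of each library with 3 or more macrophage marker UMIs, and without these cells its pump level was 1026 CPM in the high and 1046 CPM in the low GFP library, with log2 ratios of 2.51 and 2.24 for 10 or more over none and again 20 of 20 genes at least 2-fold higher. Within a class the high GFP cells were above the low GFP cells by 0.32 with under 10 and by 0.24 with 10 or more, against 1.08 over the whole cluster. Melanin UMIs were also higher in the high GFP cells, at 473 against 290 CPM with under 10 and 4132 against 3171 CPM with 10 or more. With none the pump difference was 0.27, but -0.03 (-0.16 to 0.11) without the macrophage-marker cells, so that it rested on them. The class is a range of a score and not a cell type, and many cells lay between 5 and 15 melanin UMIs per 10000, near the limit. In the high GFP library these were 34 cells above and 73 below it, and in the low GFP library 10 above and 22 below. Cluster 6, all of whose cells had 10 or more, was above the cluster 1 cells of that class, by 0.69 in the high and 0.81 in the low GFP library. The class has no upper limit, and the cells compared were not matched in melanin. Melanin UMIs stood at 15172 and 13038.5 CPM in cluster 6 against 4132 and 3171 CPM in the cluster 1 cells.

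**Figure D4:**
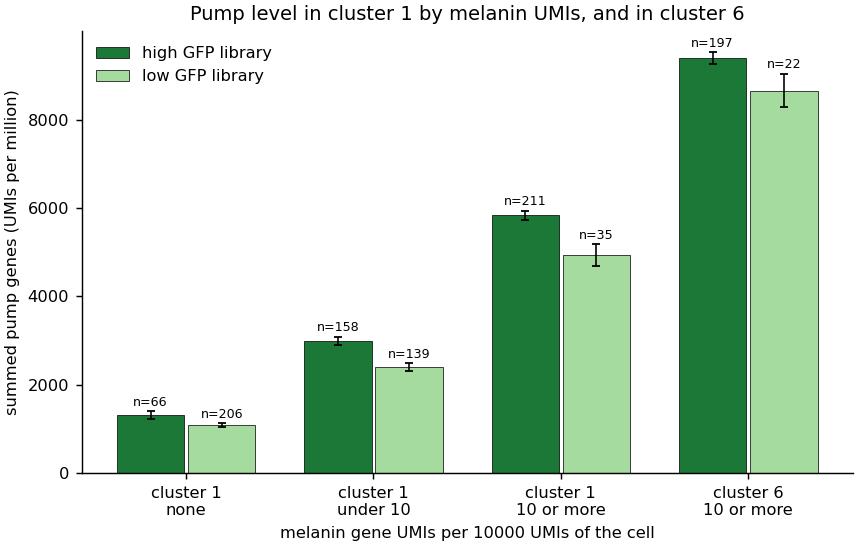
Summed pump level (CPM) in cells of cluster 1 with no, under 10, and 10 or more melanin gene UMIs per 10000, and in cluster 6, with the high GFP library left of the low GFP library and 95% Poisson intervals. The class with none includes 1 macrophage-marker cell of each library, and in both libraries the level is ordered as the melanin classes are, between 1314 and 5836 CPM in the high and between 1088 and 4936 CPM in the low GFP library.

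Several subunits have a pair or more of genes, and the share of UMIs on each gene differed between clusters. Capture differs between genes, so a share is to be compared between clusters and not read as a share of transcripts. Reads that fit paralogs equally may be lost or assigned to either by the authors' counting, so the shares below are those of the counted UMIs. For the a subunit, atp6v0a2b made up 65.2% of the UMIs of the atp6v0a genes in the high and 74.1% in the low GFP library in cluster 6, but 31.9% and 34.0% in cluster 3, where atp6v0a1a made up 67.3% and 66.0%. The melanophore-like and xanthophore-like cells thus had most of their atp6v0a UMIs on different genes. Another a subunit gene, tcirg1b, does not carry the pump prefix and stood outside the rule, with 68.1 and 71.7 CPM in cluster 6, 64.2 and 47.3 CPM in cluster 3, and 4.45 and 3.95 CPM in the non-pigment clusters. With tcirg1a and tcirg1b in the total, atp6v0a2b made up 49.4% and 56.3% in cluster 6 and 15.4% and 20% in cluster 3, where tcirg1b made up 38.2% and 37.6% and atp6v0a1a 32.5% and 38.8%. For the C subunit, atp6v1c1b took 68.1% and 76.1% in cluster 6, 64.5% and 55.7% in cluster 3, and 7.4% and 3.2% in cluster 0. For the A subunit, atp6v1aa took 37.4% and 34.6% in cluster 6, and 72.1% and 75.8% in the neuron-like cluster 4. For the E subunit, atp6v1e1a took 9.1% and 12.8% in cluster 6, and 31.9% and 46.8% in cluster 0.

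The neuron-like cluster 4 used a set of pump genes that cluster 6 had in small amounts. Its c subunit UMIs were divided between atp6v0ca and atp6v0cb, and atp6v0cb stood at 390.4 CPM in the high and 383.8 CPM in the low GFP library and took 41.2% and 44.1%, against 1.3% and 0.8% in cluster 6. The genes atp6v0a1b (68.4 and 56.9 CPM), atp6ap1a (55.6 and 41.0 CPM) and atp6v1b2 (27.1 and 38.7 CPM), which are too low over all cells for a ratio, were also at these levels in cluster 4. In cluster 6 the same genes had 1.9 and 0 CPM, 0.9 and 4.2 CPM, and 0.9 and 4.2 CPM, the low GFP values resting on at most 1 UMI. All 6 low genes with any UMI were higher in cluster 4 than in clusters 6, 3 and 1 in both libraries. Some of these orders rest on few UMIs, such as atp6ap1la at 3.42 CPM against 1.48 CPM in cluster 3 in the low GFP library. The share of all genes so ordered was not counted, so the order does not set these genes apart. Compared with clusters 0, 2, 5, 7 and 8, cluster 4 was at least 2-fold higher for 15 of 20 pump genes in both libraries, where 13.5% of all genes were. Widest was atp6v0cb, with log2 ratios of 4.87 and 4.99. Lower in cluster 4 by at least 2-fold in both libraries was 1 gene, atp6v1e1a (0 and 1 UMI in cluster 4), where 20.9% of all genes were. For atp6v0a2b cluster 4 held 1 and 0 UMIs. The islet-like cluster 9, with 19 cells of the low GFP library, had 578 CPM of atp6v0cb, 61.0% of its c subunit UMIs.

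**Figure D5:**
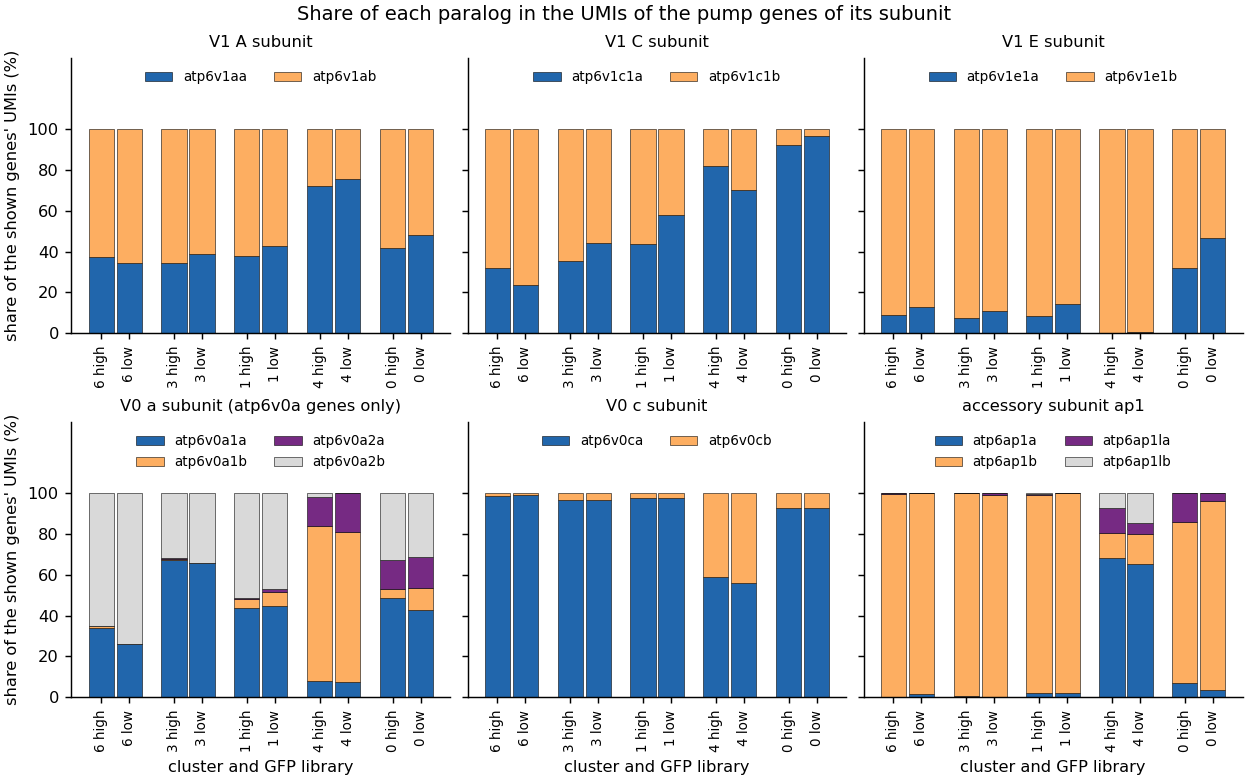
Share of the UMIs of each subunit's pump genes (percent) counted on each of its genes in clusters 6, 3, 1, 4 and 0, with the high GFP library left of the low GFP library. In cluster 6 the gene atp6v0a2b holds 65.2% and 74.1% of the UMIs of the atp6v0a genes, tcirg1 genes left out, and atp6v0cb holds 1.3% and 0.8% of c subunit UMIs, while atp6v0cb holds 41.2% and 44.1% in cluster 4.

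The share of cells with a UMI followed the levels. With each cell thinned to 3000 UMIs, atp6v0ca was seen in 99.9% of cells of cluster 6 in the high and 99.8% in the low GFP library (100% and 100% unthinned), in 87.7% and 68.1% in cluster 1 (97.0% and 89.5% unthinned), and in 42.9% and 39.6% in cluster 0 (57.4% and 52.5% unthinned). The melanin gene dct was seen in 2.96% and 0.388% of thinned cells of cluster 0 (5.08% and 0.3996% unthinned). Because dct and atp6v0ca differ in level and spread across the clusters, the dct share sets no limit for atp6v0ca RNA carried over from other cells. Such carry-over was not tested. Shallower cells were left out, 2 and 0 of cluster 6, 15 and 10 of cluster 1, and 146 and 207 of cluster 0 in the high and low GFP libraries. Of the 27 pump genes, 9 in the high and 7 in the low GFP library were seen in at least 50% of thinned cells of cluster 6, against 5 and 5 in cluster 3, 4 and 2 in cluster 1, and 0 and 0 in cluster 0. Such counts were not made over all genes, so they do not set the pump genes apart from other genes.

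Genes that act with the pump, or beside it, were read from lists chosen by function. The 19 subunit genes of the mitochondrial ATP synthase, a rotary relative of the pump that makes ATP, differed little between the clusters: 1 of 19 (atp5meb) was at least 2-fold higher in cluster 6 than in the non-pigment clusters in both libraries, where 15.3% of all genes were, with medians of 0.31 and 0.43. Of the lysosomal genes, 15 of the 17 with 200 or more UMIs were higher by 2-fold, beside the same 15.3% of all genes, with medians of 2.76 and 2.77. The exceptions were lamp1b and scarb2a. Ragulator and Rag genes, whose products hold nutrient signalling on the lysosome next to the pump, were higher in 7 of 8, with medians of 2.43 and 2.64. Among genes of pump assembly and regulation 4 of 6 were higher: vma21 (log2 ratios 2.21 and 2.40) and ccdc115 (3.32 and 3.57), assembly factors, tmem199 (2.74 and 2.49), a partner of ccdc115, and dmxl2 (3.78 and 4.55), which encodes a rabconnectin that promotes joining of V1 and V0. The other 2, rogdi and oxr1b, had 6.48 and 0 CPM and 0 and 0 CPM in cluster 6 but 48.3 and 41.4 CPM and 85.4 and 51.7 CPM in cluster 3.

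At least 2-fold higher in cluster 6 than in cluster 3 in both libraries were 2 of 17 lysosomal, 0 of 8 Ragulator and Rag, 0 of 19 ATP synthase and 1 of 6 assembly genes (dmxl2), beside the 4 of 20 pump genes and 4.5% of all genes. In cluster 4, where most pump genes were also high, 0 of 17 lysosomal genes were 2-fold above the other non-pigment clusters in both libraries, where 13.5% of all genes were. The MiT family of transcription factors, known in mammals to drive lysosomal and pump genes, was read from 4 genes with enough UMIs. Of these mitfa had 1567 and 1699 CPM in cluster 6, 667.7 and 406.1 CPM in cluster 3, and 12.7 and 3.198 CPM in the non-pigment clusters, and tfeb had 57.4 and 54.8 CPM, 43.9 and 35.4 CPM, and 2.35 and 1.88 CPM in the same groups. Both were thus low in the non-pigment clusters, and mitfa stood further above cluster 3 than tfeb did. These 2 of the 4 were at least 2-fold above the non-pigment clusters in both libraries, where 15.3% of all genes were, and the other 2 were not. The gene tfec had 1 and 0 UMIs in cluster 6, against 79.8 and 76.8 CPM in cluster 3, 17.2 and 21.6 CPM in cluster 1, and 1.11 and 0.659 CPM in the non-pigment clusters, and tfe3a had 31.5 and 37.9 CPM in cluster 6, 41.5 and 34.0 CPM in cluster 3, and 18.2 and 20.9 CPM in the non-pigment clusters. Since the mitfa promoter drives the GFP by which the cells were sorted, its level is not independent of the libraries.

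Over 18 profiles, 1 for each library in clusters 0 to 8, 13 of the 20 pump genes had a Pearson correlation above 0.9 with the sum of the other pump genes, and the range was 0.39 for atp6v0cb to 0.985 for atp6v1e1b. Among 8211 other genes 1.94% were above 0.9, and the median was -0.02. The genes outside the list whose profile was most like that of the pump were rab3ip (0.978), tbk1 (0.974), psap (0.971), napaa (0.969), scamp3 (0.968), aatkb (0.967), tmem198b (0.966), ap3m2 (0.966), arl6ip1 (0.964) and vma21 (0.963). The points share libraries and depth, and these values are a description.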

How the data were processed

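Per the labels and the study's methods, cells were dissociated, sorted by GFP and put through the 3′ v3.1 droplet protocol of 10x Genomics. The submitters' processing notes name Cell Ranger 6.1.2 and GRCz11. The deposited matrices hold counts of UMIs per gene and cell, not normalised, and the authors' cell table gives cluster, GFP fraction and other values per cell. It keeps 4735 of 5276 barcodes, with 9 columns left aside. The pump members and the gene lists were chosen with earlier results of these data known.

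UMIs of the kept cells were summed per cluster and library from the per-library matrices and divided by the summed total (CPM). Poisson intervals and conditional intervals of ratios are exact, at 95%. PCR copies were collapsed by UMI, and intervals cover counting error only. Ratios need 200 UMIs over all kept cells, a called gene at least 2-fold, and 3 UMIs served as the floor where a group had 0. Thinned shares are expected shares at 3000 UMIs. Named in full were the 12 members with most UMIs in cluster 6, the 5 highest and 5 lowest ratios, paralog pairs, and the 10 genes of most similar profile on log2(CPM + 10). All 27 members were found by identifier in a gene name table, 16 under the same symbol, 10 under the same but for the paralog letter and 1 (atp6v1ba) under another. No doublets were removed in the main values, since Scrublet (scanpy 1.11.5) marked 6 of 2605 and 5 of 2671 barcodes. Alternatives were the aggregated matrix of both libraries, scaling by edgeR 4.0.16 (trimmed mean of M values, TMM) or median of ratios, leaving out mitochondrial, ribosomal and melanin genes, equal weight per cell, leaving out the 5% highest doublet scores, other fold limits and depths, and leaving out atp6v0ca. The steps ran under scipy 1.17.1, pandas 2.3.3, numpy 2.4.6 and Python 3.11.15, and were tested on simulated data.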

Additional observations from a re-analysis of the deposited data

Results flagged for a closer look

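Barcodes that the authors' cell table leaves out still carried pump UMIs. The 231 left-out barcodes of the high GFP library had a summed pump level of 2497 CPM, and the 310 of the low GFP library had 1294 CPM, at medians of 1160 and 945 UMIs per barcode.

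The high over low GFP difference of the summed pump level did not have one sign. It was -0.47 on the log2 scale in cluster 7, while it was 0.12 in cluster 6, 0.082 in cluster 3, 1.08 in cluster 1, 0.12 in cluster 0, 0.28 in cluster 2, 0.13 in cluster 4 and 0.28 in cluster 8. In cluster 5 it was -0.08, with an interval of -0.23 to 0.07 that held 0. The difference between clusters was not tested. In cluster 7 the value was 0.07 (95% interval -0.11 to 0.25) without the 2 cells of the high and 8 of the low GFP library that had an ionocyte marker UMI.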

How the results depend on the processing

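Of 800 values of single pump genes under 8 alternatives, 33 moved outside their counting interval. The sign changed in 9, all against cluster 3 and all in genes whose interval held 0 (atp6v0cb in the high, and atp6v1aa, atp6v1h, atp6v1c1a and atp6ap1b in the low GFP library). Scaling moved the median log2 ratio of all genes, cluster 6 over other clusters, by between -0.21 (over cluster 3, low GFP library, TMM) and 0.11 (over the non-pigment clusters, high GFP library, TMM). The summed ratio of cluster 6 over the non-pigment clusters, 3.46 in the high GFP library, became 3.57 with TMM, 3.34 with median of ratios, 3.55 without mitochondrial, ribosomal and melanin genes, 3.39 with equal weight per cell, 3.54 without high doublet scores and 3.37 without atp6v0ca. In the low GFP library, 3.37 became 3.16 with TMM, 3.13 with median of ratios, 3.46 without those genes, 3.46 without ionocyte-marker cells and 3.28 without atp6v0ca. Over cluster 3, 0.97 in the high GFP library became 0.82 with TMM, 0.86 with median of ratios, 1.03 without those genes and 0.79 without atp6v0ca, and 0.94 in the low GFP library became 0.72, 0.81 and, without atp6v0ca, 0.72. Over cluster 1, 1.19 became 1.25 with TMM, 1.28 with median of ratios and 1.12 without atp6v0ca in the high, and 2.15 became 1.93 and 2.07 in the low GFP library. High over low GFP in cluster 6 became 0.42 with TMM and 0.24 with median of ratios, in cluster 3 0.32 and 0.18, in cluster 1 1.03 with median of ratios and 1.04 with equal weight, and in the non-pigment clusters -0.024 without high doublet scores (0.026 in the main values, with an interval that held 0) and 0.10 without ionocyte-marker cells. The count of 4 pump genes at least 2-fold above cluster 3 in both libraries became 3 with TMM and 3 with median of ratios. It became 6 without mitochondrial, ribosomal and melanin genes. Of 20 pump genes, 10 were 1.5-fold and 2 were 3-fold higher in cluster 6 than in cluster 3 in both libraries, and 2 were 3-fold higher than in cluster 1. The shares of all genes under these settings were not counted, so these counts show only the effect of the scaling or of the limit. Pump genes seen in at least 50% of cells at full depth numbered 18 in the high and 17 in the low GFP library in cluster 6, 13 and 12 in cluster 3, and 11 and 5 in cluster 1. At 1500 UMIs they numbered 4 in cluster 6 in the low GFP library, and 2 in the high and 0 in the low GFP library in cluster 1. At these depths too the share over all genes was not counted. Leaving out the ionocyte-marker cells and the macrophage-marker cells, and counting tcirg1 genes with the a subunit, were added after seeing the data. No paired analysis was possible because each GFP fraction had 1 library, and for the same reason no library could be left out. The promoter alternative was not run. The low GFP values of cluster 6 rest on 22 cells, in which a gene at 0 UMIs could be up to 12.6 CPM.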

Other observations

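The groups of cells described here were chosen after their pump values had been seen, so the values are descriptions. In the epidermis-like cluster 7, 10 cells held a UMI of the ionocyte markers, 2 of the high and 8 of the low GFP library. Their summed pump level was 7763 CPM in the high and 8684 CPM in the low GFP library, against 833.5 and 796.0 CPM in the other 74 and 121 cells of the cluster. Both libraries together gave a log2 ratio of 3.39 (95% interval 3.26 to 3.53). The level was uneven, since 4 of the 10 cells were above 100 pump UMIs per 10000 (193 in the high, and 322, 265 and 110 in the low GFP library) and the others lay between 1.85 and 51.7. Of 18 pump genes with a ratio, 17 were at least 2-fold higher in these cells, where 25.3% of genes with a ratio were. Of their 44 A subunit UMIs 43 were of atp6v1aa, and all 26 UMIs of the atp6v0a genes were of atp6v0a1a and 0 of atp6v0a2b, unlike in cluster 6. All 215 c subunit UMIs were of atp6v0ca, which held most c subunit UMIs in cluster 6 as well. Ionocyte markers were at 0 in clusters 3, 4, 6 and 9.

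In the neuron-like cluster 4, cells with a UMI of snap25a, a synaptic vesicle fusion gene, had 3874 CPM of pump UMIs in the high and 3728 CPM in the low GFP library (53 and 70 cells), against 1569 and 1374 CPM in cells without one (95 and 127 cells). The cells with the UMI were deeper, with medians of 5169 and 4583 UMIs against 3701 and 3556, and the part of depth in the difference was not tested. Of their 942 c subunit UMIs 471 were of atp6v0cb, against 28.7% in the cells without, and of their atp6v0a UMIs 80.2% were of atp6v0a1b, against 62.5%.

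In cluster 5, 9 cells of each library had 10 or more melanin UMIs per 10000. They had 2421 and 5202 CPM of pump UMIs, against 564.8 and 490.0 CPM in the other 150 and 177 cells, and mitfa stood at 95.3 and 128 CPM in them against 6.58 and 2.61 CPM. Retina markers stood at 191 and 164 CPM in them against 1047 and 953 CPM in the other cells. In cluster 1, 1 cell of each library held 3 or more macrophage marker UMIs (204 and 65), with 11498 and 5243 CPM of pump UMIs.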
